A study of Homo sapiens with 24 samples.

Results

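The genes described here are 45 genes whose products load, start and run the DNA replication fork: the MCM helicase and its loading factors, the GINS complex and the kinases that fire origins, the replicative polymerases and primase, the sliding clamp with its loader, the single-strand binding and strand-joining proteins, and proteins that assemble chromatin and guard the fork. They were chosen by name, and every probe on the array that is not a control and carries a member's gene name was taken. All 45 were found, among 27274 gene names on the array, with 56 probes of the 34127 printed, and 55 of these probes passed the filter on dim signals, so that all 45 genes were tested. Of the genes, 40 were well above background on each of the 24 arrays.

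A cell prepares its origins in the G1 phase, when ORC, CDC6 and CDT1 place inactive MCM helicases on DNA, and it fires them in S phase, when the CDC7-DBF4 kinase and other factors join CDC45 and GINS to the MCM ring to make the active helicase. Polymerase alpha with primase starts each strand, polymerases epsilon and delta extend it, PCNA holds them on the template, and FEN1 and LIG1 finish the lagging strand. Most of these genes are transcribed in proliferating cells at the entry into S phase, largely through E2F factors, and in the colon they mark the dividing crypt cells and tumour cells rather than the differentiated surface cells.

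The study asked how butyrate, a short-chain fatty acid made from dietary fibre that inhibits histone deacetylases, changes gene expression in colorectal cancer cells when Wnt signalling is left intact or blocked. All arrays came from HCT-116, a human colorectal carcinoma cell line, stably transfected with a Tet repressor and with DN-Tcf4 under a doxycycline-inducible promoter. DN-Tcf4 is a dominant negative form of the Wnt transcription factor Tcf4, and the control arrays came from cells that carry both constructs too. The groups were untreated cells (Ctl), cells with 5 mM sodium butyrate (NaB), cells with 4 μg/ml doxycycline (Doxy) and cells with both agents (DoxyNaB), harvested after 17.5 hr of butyrate, with 6 arrays in each group, 1 from each of 6 experiments. The epithelial genes KRT8, KRT18, KRT19, CDH1, CDX1 and CDX2 were above background on all 24 arrays (KRT8 and CDX1 on 1 of their 2 probes), while VIL1 and LGALS4, markers of differentiated enterocytes, were above background on at most 3 of the 6 arrays of any group. EPCAM was above background on 5 of 6 Ctl, 5 of 6 DoxyNaB and all other arrays, with medians of 4.14 (Ctl) and 2.68 (NaB). COL1A1, a fibroblast gene, was so on 5 of 6 NaB arrays and all others. VWF, an endothelial gene, was so on 3 of 6 Ctl, 4 of 6 Doxy and all butyrate arrays. From Ctl to NaB the median of COL1A1 went from -1.52 to -0.43 and that of VWF from -4.96 to -2.20. No probe of PTPRC, CD3E, PECAM1, COL3A1 or ALB passed the filter.

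The AXIN2 probe, which reports a well-known Wnt target, was higher in NaB than in Ctl by a log2 change of 1.19 ± 0.29 (SD over 6 experiments) and lower in DoxyNaB than in NaB, with a change of -2.53 ± 0.34. AXIN2 was also lower in Doxy than in Ctl, with a change of -0.58 ± 0.15, in 6 of 6 experiments. For TCF7L2, the gene of Tcf4, 2 of the 3 tested probes rose from NaB to DoxyNaB, by 2.96 ± 0.88 and 4.46 ± 0.52 (the latter probe was above background on 3 of 6 NaB arrays), and the other changed by -1.25 ± 0.65, while from Ctl to Doxy no TCF7L2 probe passed the test. Each experiment from 2 to 6 lay on a slide of its own with all 4 treatments. Experiment 1 had its NaB and DoxyNaB arrays on 1 slide and its Ctl and Doxy arrays on another, scanned on a different day. This leaves the effects of butyrate, of the slide and of the scan day inseparable in that experiment. The negative control spots were brightest on the DoxyNaB array of experiment 2 (248.9 signal units) and on the NaB array of experiment 3 (161 signal units), against a lowest value of 48.4 on the 24 arrays.

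Butyrate was accompanied by lower levels of nearly all of these genes. A level is the log2 of a probe's signal relative to the 75th percentile of its array, and it can be compared between arrays but not between genes. In NaB against Ctl, 27 of the 45 genes were lower at a fold over 2 and an adjusted p under 0.01 (limma, experiments paired, Benjamini-Hochberg over 18966 probes), against 11% of all tested probes, and 0 were higher, against 20.7%. Without the fold threshold, 40 genes were lower (28.2% of all probes) and 1, RFC1, was higher (40.1% of all probes), with 1 probe read per gene. The median change of the 45 genes was -1.24, a 2.36-fold lower level, while the median over all tested probes was 0.17. Since each array holds RNA of a whole culture, fewer cells in S phase and less RNA of these genes per cell cannot be told apart.

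The same comparison in the presence of doxycycline, DoxyNaB against Doxy, gave 26 genes lower at a fold over 2 (12.3% of all probes) and 0 higher (18.3%), and 40 lower (29.7%) and 2 higher (37.3%) without the fold threshold. Its median was -1.17 for the genes and 0.10 for all probes. The 2 comparisons use different arrays, and 24 genes passed the fold threshold downward in both. The share of all probes that passed in both is not given here, so this number is not set against one. CLSPN, GINS2 and POLD3 passed only in NaB against Ctl and MCM6 and RFC4 only in DoxyNaB against Doxy. In 34 genes every NaB array was below every Ctl array (18.9% of all probes), and in 36 every DoxyNaB array was below every Doxy array (19.9% of all probes). The reverse held for 1 gene in NaB/Ctl (24.2% of all probes) and for 0 in DoxyNaB/Doxy (21.6%). Experiment by experiment, the median change of the genes lay between -1.40 and -0.92 in NaB/Ctl and between -1.39 and -1.04 in DoxyNaB/Doxy, and between 39 and 43 genes were lower in each experiment.

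**Figure D1:**
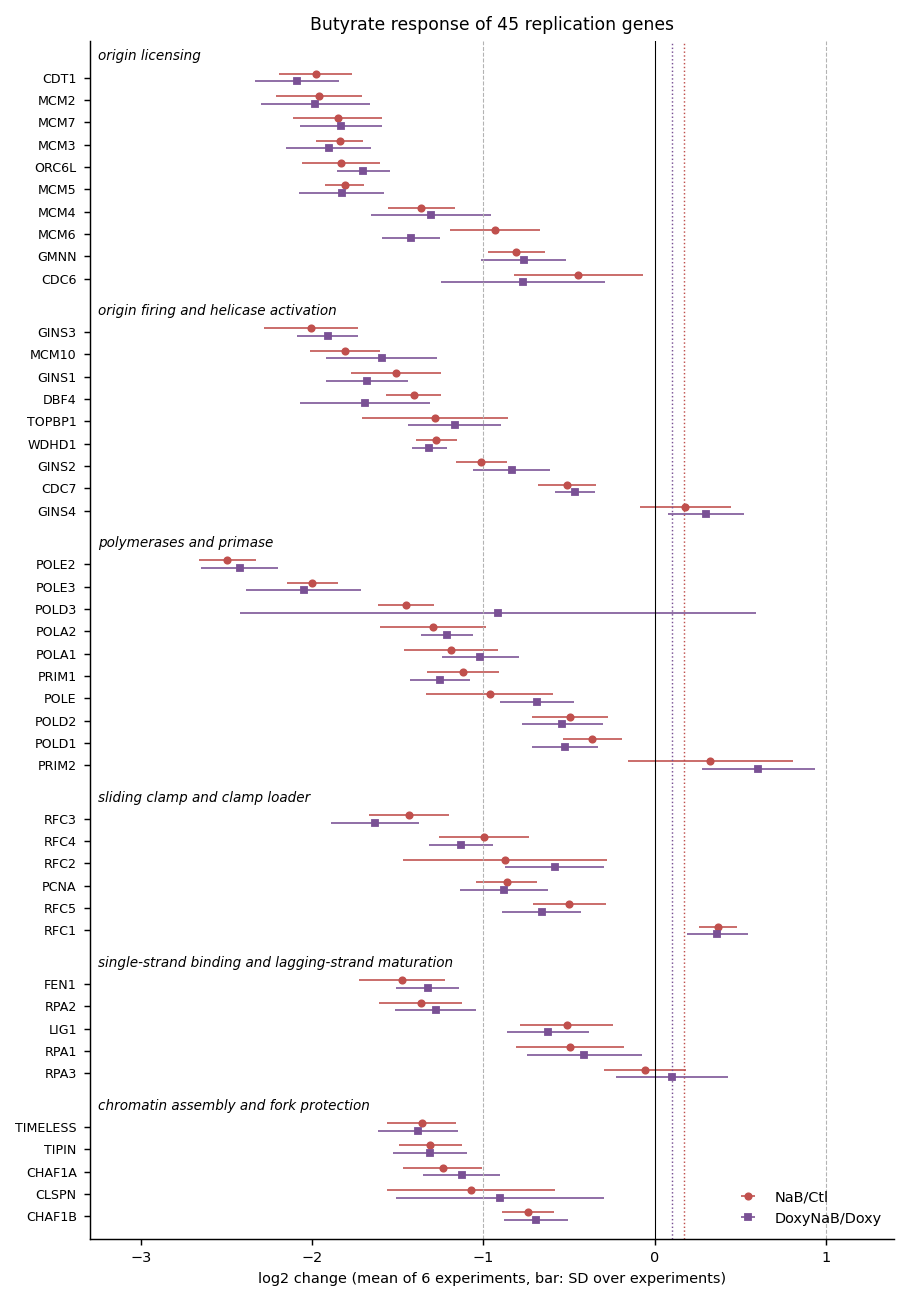
Log2 change of each of the 45 genes with butyrate, ordered by role, without doxycycline (NaB/Ctl, circles) and with it (DoxyNaB/Doxy, squares); points are means and bars SD over 6 experiments (5 where a Doxy spot was dropped), dashed lines mark a 2-fold change and dotted lines the medians of all probes (0.17 and 0.10). POLE2 lies farthest to the left at -2.49, and RFC1, PRIM2 and GINS4 lie to the right of 0 in both comparisons with this 75th percentile scaling, while with scaling to the median only PRIM2 in DoxyNaB/Doxy (0.05) stays above 0.

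Because E2F factors drive many replication genes, the RefSeq promoter windows (GRCh38.p14, 250 bases before to 50 after a start) were searched on both strands for the E2F motif, spelled TTTCCCGC, TTTGGCGC, TTTGCCGC or TTTCGCGC. Of the 45 genes, 39 had a window, 49 windows in all, and MCM4, MCM5, GINS4, POLD3, RPA2 and RPA3 had none. The motif stood in 21 of the 49 windows (42.9%), against 3.31% of all 35116 windows. The CCAAT box, searched as CCAAT, stood in 24 of the 49 (49%, against 34.6% of all windows), and the CHR element, searched as TTTGAA or TTCGAA, in 3 (6.12%, against 16.4%). Among the 21 genes with an E2F motif in a window the median change in NaB/Ctl was -1.28 (from -2.49 to -0.45), and among the 18 without it -1.06 (from -2.00 to 0.37), with overlapping ranges, and a match of letters does not show that a factor binds. The 150 bases before the start are shown for 5 genes described in full below that hold the motif at or before the start, with the motif in capitals: CDT1 (chr16:88803639-88803788, plus strand), GINS3 (chr16:58392321-58392470, plus strand), POLE2 (chr14:49688215-49688364, minus strand), RFC3 (chr13:33817999-33818148, plus strand) and TIPIN (chr15:66356686-66356835, minus strand).
CDT1: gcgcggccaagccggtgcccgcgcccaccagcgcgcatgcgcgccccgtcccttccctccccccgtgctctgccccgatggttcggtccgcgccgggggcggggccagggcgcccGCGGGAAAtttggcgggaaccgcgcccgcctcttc
GINS3: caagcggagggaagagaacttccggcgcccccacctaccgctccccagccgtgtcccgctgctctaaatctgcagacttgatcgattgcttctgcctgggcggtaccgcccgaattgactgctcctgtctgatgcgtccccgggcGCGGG
POLE2: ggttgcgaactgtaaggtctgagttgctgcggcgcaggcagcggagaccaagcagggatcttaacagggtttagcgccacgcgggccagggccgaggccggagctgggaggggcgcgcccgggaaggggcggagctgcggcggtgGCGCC
RFC3: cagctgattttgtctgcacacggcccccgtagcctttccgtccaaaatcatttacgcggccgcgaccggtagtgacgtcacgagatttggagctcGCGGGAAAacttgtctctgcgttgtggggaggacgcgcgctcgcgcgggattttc
TIPIN: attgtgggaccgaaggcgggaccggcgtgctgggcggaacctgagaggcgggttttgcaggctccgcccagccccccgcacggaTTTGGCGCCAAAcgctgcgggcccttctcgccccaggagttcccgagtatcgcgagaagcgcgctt
In GINS3 and POLE2 the last 3 bases of the motif lie after the start and are not shown, while in TIPIN a match on each strand overlaps the other. MCM2 and CDC6 hold the motif only after the start, and MCM6, which was added to the genes described in full after its values were seen, also holds it and is not shown.

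Among the 10 origin licensing genes, 7 were lower at a fold over 2 in NaB/Ctl (11% of all probes). The p threshold was passed by 9, all in the downward direction (28.2% of all probes). In DoxyNaB/Doxy 8 and 10 did so (12.3% and 29.7% of all probes). CDT1, which brings the MCM ring to the origin, lay at 3.02, 3.09 and 3.15 in Ctl (lowest, median and highest of the arrays) and at 0.76, 1.11 and 1.41 in NaB. Its Doxy arrays lay at 3.02, 3.09 and 3.26 and its DoxyNaB arrays at 0.56, 1.13 and 1.44. Every butyrate array of CDT1 was thus below every array without butyrate, and the level was 3.94-fold lower in NaB than in Ctl (log2 change -1.98 ± 0.21, SD over 6 experiments, adjusted p 7.18e-12) and 4.25-fold lower in DoxyNaB than in Doxy (adjusted p 4.16e-12), where 1 Doxy spot was dropped by its flag. MCM2, a subunit of the helicase ring, fell from 2.49, 2.60 and 3.22 in Ctl to 0.42, 0.60 and 1.11 in NaB, and from 2.35, 2.48 and 3.22 in Doxy to 0.21, 0.51 and 1.16 in DoxyNaB. Its highest level without butyrate came from experiment 1, and the fall was 3.89-fold in NaB/Ctl (-1.96 ± 0.25, adjusted p 5.04e-12) and 3.95-fold in DoxyNaB/Doxy (adjusted p 4.12e-12).

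The other ring subunits MCM3, MCM5 and MCM7 changed by -1.84, -1.81 and -1.85 in NaB/Ctl, and MCM4 by -1.36, each lower in 6 of 6 experiments. The second probe of MCM5 gave -1.81 and that of MCM7 gave -1.92. ORC6L, now named ORC6 and part of the complex that marks origins, changed by -1.83, and GMNN, which encodes geminin, the inhibitor that holds CDT1 back after origins have fired, by -0.81. CDC6, the ATPase that works with CDT1, was the least changed licensing gene. Its probe was dim, at -3.31, -2.83 and -2.64 in Ctl and at -4.16, -3.19 and -2.99 in NaB, with 5 of 6 NaB arrays above background. These arrays overlapped, and the NaB/Ctl change of -0.45 ± 0.38 did not pass the threshold (adjusted p 0.0184), while the DoxyNaB/Doxy change of -0.77 ± 0.48 did (adjusted p 0.000327). CDC6 depended on the processing. Over 18 alternatives its DoxyNaB/Doxy change lay from -1.61 to 0.086, the latter with normexp background correction. Its NaB/Ctl change lay from -1.63 to -0.22.

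**Figure D2:**
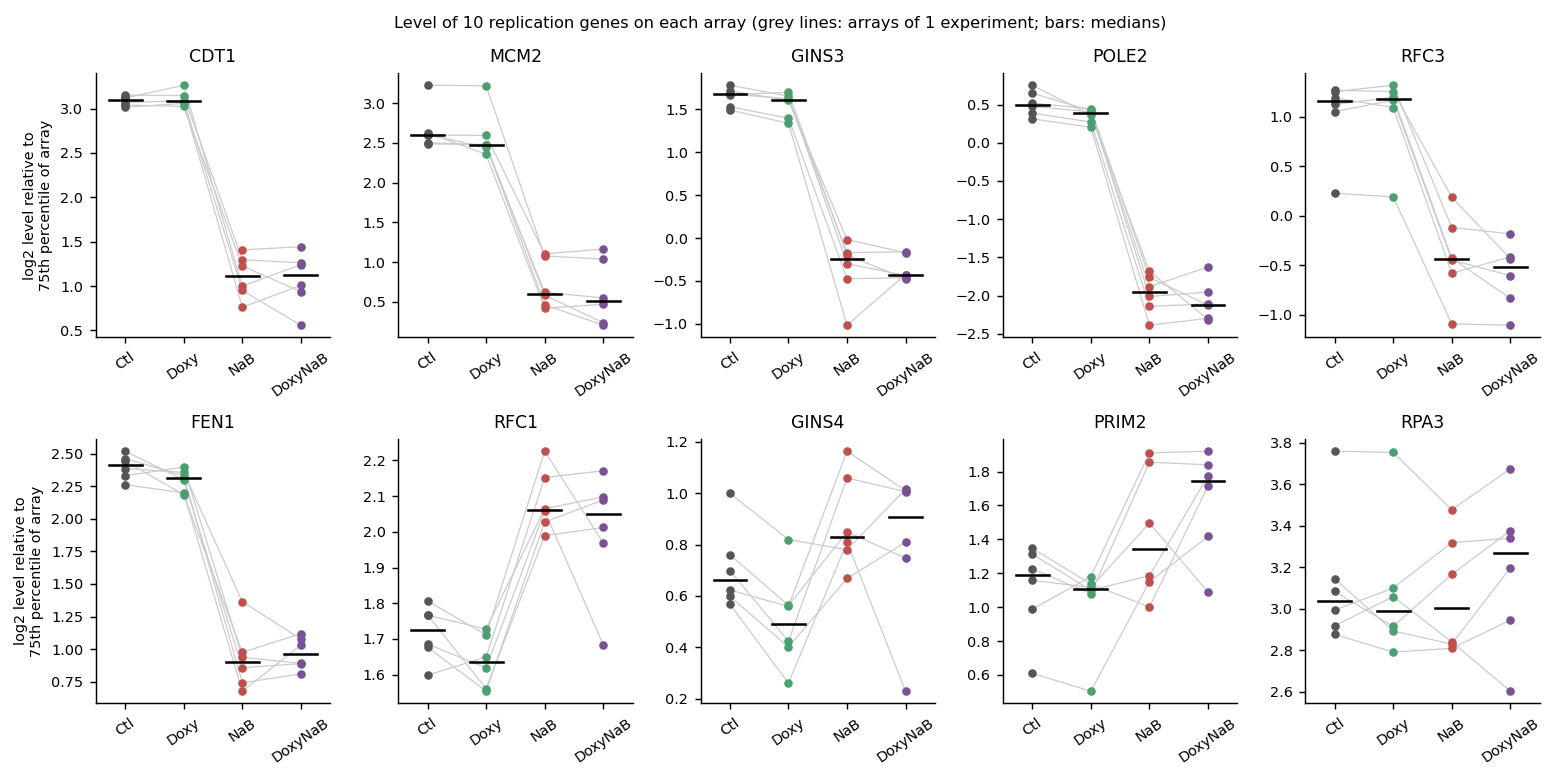
Log2 level, relative to the 75th percentile of the array, of 10 genes on each of the 24 arrays by treatment; points are arrays, grey lines join the arrays of 1 experiment and black bars are medians of 6 arrays (5 for CDT1 in Doxy). CDT1, MCM2, GINS3, POLE2, RFC3 and FEN1 have all butyrate arrays below all other arrays, by a narrow margin for RFC3, and RFC1, GINS4, PRIM2 and RPA3 do not.

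Of the 9 genes of origin firing and helicase activation, 7 were lower at a fold over 2 in NaB/Ctl (11% of all probes) and 6 in DoxyNaB/Doxy (12.3%). The p threshold was passed downward by 8 in each (28.2% and 29.7% of all probes). GINS3, a subunit of the GINS complex that joins CDC45 and the MCM ring, was at 1.49, 1.67 and 1.78 in Ctl and at -1.02, -0.25 and -0.02 in NaB. With doxycycline it went from 1.34, 1.61 and 1.70 in Doxy to -0.48, -0.43 and -0.16 in DoxyNaB. The groups with and without butyrate did not overlap, and GINS3 was 4.02-fold lower in NaB/Ctl (-2.01 ± 0.27, adjusted p 1.09e-12) and 3.75-fold lower in DoxyNaB/Doxy (-1.91 ± 0.18, adjusted p 2.01e-12). MCM10, which helps the assembled helicase to start, went from -1.26, -0.47 and -0.14 in Ctl to -3.41, -2.20 and -1.83 in NaB and from -1.27, -0.63 and -0.17 in Doxy to -2.62, -2.43 and -1.70 in DoxyNaB. Its experiment 1 arrays were the lowest of Ctl and of NaB, yet no butyrate array reached the arrays without butyrate of either kind, and the change was -1.81 ± 0.20 in NaB/Ctl (adjusted p 8.58e-10) and -1.59 ± 0.32 in DoxyNaB/Doxy (adjusted p 4.98e-09).

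GINS1 changed by -1.51 and GINS2 by -1.01 in NaB/Ctl. DBF4, the regulatory subunit of the origin kinase, changed by -1.41, and CDC7, its catalytic partner, by -0.51. TOPBP1, a scaffold for helicase assembly, changed by -1.28, and WDHD1, which ties polymerase alpha to the helicase, by -1.27 with an SD over experiments of only 0.12. The TOPBP1 change was -2.13 in experiment 1, against -1.31 to -1.06 in the other experiments. GINS4, the remaining GINS subunit, had levels of 0.57, 0.66 and 1.00 in Ctl, 0.67, 0.83 and 1.16 in NaB, 0.26, 0.49 and 0.82 in Doxy and 0.23, 0.91 and 1.02 in DoxyNaB. These groups overlapped, and neither 0.18 ± 0.26 in NaB/Ctl (adjusted p 0.105) nor 0.30 ± 0.22 in DoxyNaB/Doxy (adjusted p 0.0109) passed the threshold. Without experiment 2, whose DoxyNaB array was the lowest, the DoxyNaB/Doxy change of GINS4 was 0.36 (adjusted p 0.00268). Arrays scaled to their median instead gave GINS4 changes of -0.57 in NaB/Ctl and -0.26 in DoxyNaB/Doxy.

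The polymerases and primase had the largest single fall. POLE2, the second subunit of the leading-strand polymerase epsilon, measured by a probe at chr14:49192161-49192220 (NCBI36, minus strand), was at 0.31, 0.50 and 0.75 in Ctl and at -2.39, -1.95 and -1.68 in NaB. With doxycycline, it went from 0.20, 0.38 and 0.45 in Doxy to -2.31, -2.12 and -1.63 in DoxyNaB. Arrays with and without butyrate were wide apart, with a 5.64-fold lower level in NaB/Ctl (-2.49 ± 0.17, adjusted p 1.55e-13) and a 5.37-fold lower level in DoxyNaB/Doxy (-2.42 ± 0.22, adjusted p 2.07e-13). POLE3, a small histone-fold subunit of the same enzyme, fell from 3.78, 3.87 and 4.10 in Ctl to 1.71, 1.79 and 2.33 in NaB and from 3.56, 3.73 and 3.89 in Doxy to 1.11, 1.75 and 1.91 in DoxyNaB. Its groups did not overlap either, and the change was -2.00 ± 0.15 in NaB/Ctl (adjusted p 2.18e-12) and -2.05 ± 0.34 in DoxyNaB/Doxy (adjusted p 1.46e-12). POLE, the catalytic subunit, changed by -0.96 on its brighter probe (adjusted p 4.04e-07), but its second, dim probe gave -0.09 (adjusted p 0.855).

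POLA1 and POLA2 of polymerase alpha changed by -1.19 and -1.29, and PRIM1, the catalytic primase subunit, by -1.12. POLD1, the catalytic subunit of polymerase delta, and POLD2, its partner, changed by -0.36 (adjusted p 0.000186) and -0.49 (adjusted p 5.69e-05). POLD3, another delta subunit, was at 1.14, 1.22 and 1.30 in Ctl and at -0.40, -0.19 and -0.12 in NaB, a change of -1.45 ± 0.16 (adjusted p 0.0032). Among its DoxyNaB arrays the lowest was -0.54 and the median -0.21, but the array of experiment 4 was at 3.20, above every other POLD3 array. The DoxyNaB/Doxy change of POLD3 was -0.91 ± 1.51 (adjusted p 0.0469) with this array and -1.52 (adjusted p 5.43e-10) without experiment 4. Leaving out any experiment other than the fourth took the NaB/Ctl adjusted p of POLD3 above the threshold, to between 0.0101 and 0.0146, and leaving out the fourth gave 1.24e-09.

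PRIM2, the regulatory primase subunit, had positive changes with the 75th percentile scaling, while scaling to the median gave -0.42 in NaB/Ctl and 0.05 in DoxyNaB/Doxy. Its brightest probe lay at 0.61, 1.19 and 1.35 in Ctl and at 1.00, 1.34 and 1.91 in NaB, and at 0.50, 1.11 and 1.18 in Doxy and 1.09, 1.74 and 1.92 in DoxyNaB. The arrays overlapped in both comparisons, with a change of 0.33 ± 0.48 in NaB/Ctl (adjusted p 0.048) and 0.61 ± 0.33 in DoxyNaB/Doxy (adjusted p 0.000976). The other 2 PRIM2 probes gave 0.61 (adjusted p 6.09e-05) and 0.52 (adjusted p 0.000489) in NaB/Ctl. In experiments 2 to 4 alone the change in NaB/Ctl was -0.05, and in experiments 5 and 6 alone 0.78. PRIM2 has a partial near-identical copy in the genome, so what its probes bind is uncertain.

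The 6 genes of the sliding clamp and its loader had a median change of -0.87 in NaB/Ctl. PCNA, the clamp itself, changed by -0.86 ± 0.18 in NaB/Ctl and -0.88 ± 0.26 in DoxyNaB/Doxy. Of the 6 genes only RFC3 passed a fold of 2 in NaB/Ctl (11% of all probes lower), with RFC4 added in DoxyNaB/Doxy (12.3%). RFC3, a small loader subunit, was at 0.23, 1.16 and 1.27 in Ctl, -1.10, -0.44 and 0.19 in NaB, 0.19, 1.18 and 1.32 in Doxy and -1.11, -0.52 and -0.18 in DoxyNaB. The lowest Ctl and Doxy arrays were those of experiment 1 and lay just above the highest NaB array, and the change was -1.43 ± 0.23 in NaB/Ctl (adjusted p 1.61e-10) and -1.64 ± 0.26 in DoxyNaB/Doxy (adjusted p 2.63e-11). RFC4, another small subunit, was at 2.89, 3.39 and 3.56 in Ctl, 2.22, 2.28 and 2.57 in NaB, 3.20, 3.34 and 3.58 in Doxy and 1.95, 2.30 and 2.38 in DoxyNaB. Its groups did not overlap, and it was 1.99-fold lower in NaB/Ctl (adjusted p 4.99e-09), just short of the fold threshold, and 2.19-fold lower in DoxyNaB/Doxy (adjusted p 8.79e-10). RFC5 changed by -0.50 and RFC2 by -0.87 ± 0.60 in NaB/Ctl, where the RFC2 level of the NaB array of experiment 1 was 0.026 against 0.94 to 1.35 on the other NaB arrays, and without experiment 1 the RFC2 change was -0.63 (adjusted p 1.34e-05).

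RFC1, the large subunit of the loader (probe at chr4:38966470-38966529, NCBI36, minus strand), was the only gene of the 45 higher in NaB than in Ctl at the p threshold. This holds for the 75th percentile scaling, all 24 arrays and the brightest tested probe of each gene. When all tested probes of each gene were averaged, 2 genes were higher, RFC1 and PRIM2. With 1 probe per gene, quantile normalization gave 3 higher genes, and leaving out the 2 butyrate arrays of brightest negative controls gave 2. Experiments 5 and 6 alone gave 2, experiments 2 to 4 alone 0, and scaling to the median 0. RFC1 lay at 1.60, 1.73 and 1.81 in Ctl and at 1.99, 2.06 and 2.23 in NaB, and at 1.55, 1.63 and 1.73 in Doxy and 1.68, 2.05 and 2.17 in DoxyNaB. The NaB arrays did not overlap the Ctl arrays, while 1 DoxyNaB array fell within the Doxy range, and RFC1 was higher in 6 of 6 experiments of each comparison, by 0.37 ± 0.11 (adjusted p 7.7e-05) and 0.37 ± 0.18 (adjusted p 8.49e-05). This direction is that of the 75th percentile scaling: with scaling to the median of the array RFC1 changed by -0.38 (adjusted p 0.127) and -0.19 (adjusted p 0.452).

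Of the 5 genes of single-strand binding and lagging-strand maturation, 4 passed the p threshold downward in each comparison (28.2% of all probes in NaB/Ctl and 29.7% in DoxyNaB/Doxy). FEN1, the nuclease that trims Okazaki fragments, was at 2.26, 2.41 and 2.52 in Ctl, 0.68, 0.90 and 1.36 in NaB, 2.19, 2.31 and 2.40 in Doxy and 0.81, 0.96 and 1.12 in DoxyNaB. Its groups did not overlap, and the change was -1.48 ± 0.25 in NaB/Ctl (adjusted p 2.47e-11) and -1.33 ± 0.19 in DoxyNaB/Doxy (adjusted p 1.04e-10). RPA2, the middle subunit of the single-strand binding complex RPA, was at 2.36, 2.48 and 2.82 in Ctl, 0.94, 1.15 and 1.51 in NaB, 2.16, 2.35 and 2.60 in Doxy and 0.67, 1.15 and 1.33 in DoxyNaB. It too was lower on every butyrate array, by a change of -1.37 ± 0.24 (adjusted p 5.78e-10) and -1.28 ± 0.24 (adjusted p 1.47e-09), and its second probe gave -1.25 in NaB/Ctl. LIG1, the ligase that seals the fragments, changed by -0.51. RPA1, the large RPA subunit, changed by -0.50 on its brighter probe (adjusted p 0.000705), and a second probe gave 0.38 (adjusted p 0.217). RPA3, the small RPA subunit, was at 2.88, 3.04 and 3.76 in Ctl, 2.81, 3.00 and 3.48 in NaB, 2.79, 2.99 and 3.75 in Doxy and 2.60, 3.27 and 3.67 in DoxyNaB. The RPA3 arrays of the 4 groups overlapped widely, with changes of -0.06 ± 0.24 (adjusted p 0.613) and 0.10 ± 0.33 (adjusted p 0.343). Arrays scaled to their median gave RPA3 -0.81 (adjusted p 0.00516) and -0.46 (adjusted p 0.102).

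All 5 genes of chromatin assembly and fork protection passed the p threshold downward in both comparisons (28.2% of all probes in NaB/Ctl and 29.7% in DoxyNaB/Doxy). TIMELESS, which with TIPIN keeps the helicase and polymerases coupled, was at 1.57, 1.82 and 1.99 in Ctl, 0.26, 0.44 and 0.65 in NaB, 1.79, 1.94 and 1.96 in Doxy (5 arrays, 1 spot being dropped) and 0.32, 0.50 and 0.83 in DoxyNaB. TIPIN was at 2.37, 2.46 and 2.59 in Ctl, 0.77, 1.20 and 1.47 in NaB, 2.20, 2.38 and 2.62 in Doxy and 0.69, 1.14 and 1.35 in DoxyNaB. Neither partner had a butyrate array within the range of the arrays without butyrate, and in NaB/Ctl they changed by -1.36 ± 0.20 (adjusted p 2.37e-10) and -1.31 ± 0.18 (adjusted p 6.65e-11), and in DoxyNaB/Doxy by -1.38 ± 0.23 and -1.31 ± 0.22. CLSPN, the checkpoint adaptor claspin, had a dim probe and changed by -1.07 ± 0.49 in NaB/Ctl. Its change was -2.00 in experiment 1, where slide and butyrate are inseparable, against -1.20 to -0.67 in the other experiments. CHAF1A and CHAF1B, 2 subunits of the complex that puts histones on new DNA, changed by -1.24 and -0.74, and CHAF1B was at 2.10, 2.14 and 2.21 in Ctl, 1.19, 1.39 and 1.59 in NaB, 1.91, 2.03 and 2.16 in Doxy and 1.13, 1.37 and 1.53 in DoxyNaB. Its groups did not overlap, at a smaller fold of 1.67 in NaB/Ctl (adjusted p 1.3e-08). The second probe of CHAF1A gave -0.99 in NaB/Ctl and -0.89 in DoxyNaB/Doxy, short of a fold of 2 in both.

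Within several complexes 1 subunit stood above its partners in each experiment. This was noticed after the values were seen and is a description. The change of GINS4 was above those of GINS1, GINS2 and GINS3 in 6 of 6 experiments of NaB/Ctl and of DoxyNaB/Doxy, with a smallest gap of 1.02 and 1.05. The change of RFC1 was above those of the other loader subunits with a value in 6 of 6 experiments of each comparison, with a smallest gap of 0.52 and 0.69. RFC2 had no value in experiment 6 of DoxyNaB/Doxy and was not compared there. The change of PRIM2 was above that of PRIM1 in 6 of 6, with a smallest gap of 0.75 and 1.55. These gaps are between changes within the same pair of arrays, so another scaling factor per array leaves them as they are. RPA3 was above RPA1 and RPA2 in 6 of 6 experiments of NaB/Ctl and 5 of 6 of DoxyNaB/Doxy. MCM6 was above the other 5 ring subunits in 6 of 6 experiments of NaB/Ctl but in 3 of 6 of DoxyNaB/Doxy.

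**Figure D3:**
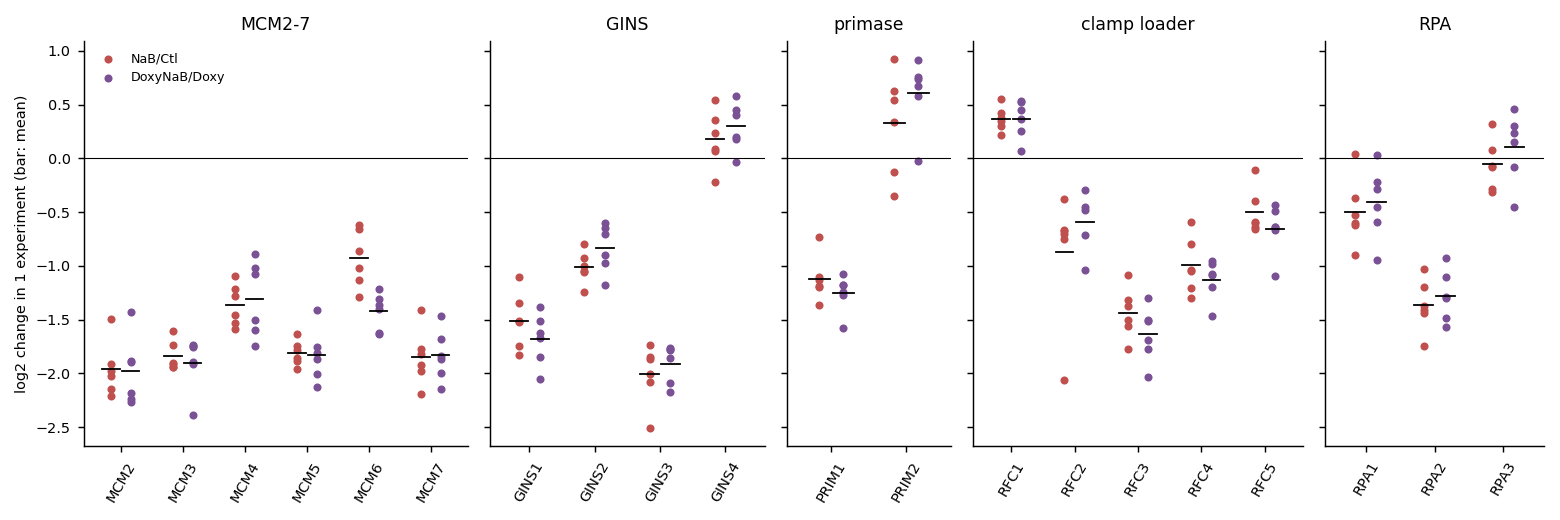
Log2 change with butyrate of each subunit of 5 complexes in each experiment, without doxycycline (NaB/Ctl) and with it (DoxyNaB/Doxy); points are single experiments and bars their mean. GINS4, PRIM2 and RFC1 lie above all partners with a value in 6 of 6 experiments of both comparisons (RFC2 has none in experiment 6 of DoxyNaB/Doxy). MCM6 lies above the rest of the MCM ring in NaB/Ctl and nearer to it in DoxyNaB/Doxy.

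The doxycycline comparisons gave no call among the 45 genes. Since no TCF7L2 probe passed the test in Doxy/Ctl, that comparison shows doxycycline without a measured rise of TCF7L2, and DoxyNaB/NaB is the one in which probes of that gene rose. The Wnt target AXIN2 was nevertheless lower in Doxy/Ctl (-0.58 ± 0.15, adjusted p 0.00289 by limma). By limma, in Doxy against Ctl 0 genes were lower and 0 higher at a fold over 2 (0.0264% and 0.0685% of all probes), 0 passed the p threshold alone in either direction (0.0896% and 0.411%), and 2 were lower at an unadjusted p under 0.05. In DoxyNaB against NaB, 0 genes were lower and 0 higher at a fold over 2 (0.253% and 0.127% of all probes), 0 passed the p threshold alone (1.87% and 0.617%), and 6 were lower at an unadjusted p under 0.05. In 0 genes did the Doxy and Ctl arrays not overlap (0.279% of all probes lower and 0.67% higher), and likewise in 0 for DoxyNaB and NaB (1.28% and 0.385%). The methods' paired test, with and without adjustment, also called 0 at a fold over 2 in each of these comparisons, and without the fold threshold it gave 0 after adjustment and, unadjusted at p under 0.01, 4 lower genes in Doxy/Ctl and 1 in DoxyNaB/NaB. The shares of all probes at the unadjusted thresholds were not counted, so the unadjusted counts cannot be set against them and are not read as a result. The median change was -0.09 in Doxy/Ctl and -0.08 in DoxyNaB/NaB, against 0.02 and -0.03 for all probes, and the number of genes below 0 moved with the scaling, from 24 to 41 in Doxy/Ctl and from 14 to 33 in DoxyNaB/NaB. The 95% interval of the log2 change lay within -1 and 1 for 45 genes in Doxy/Ctl and for 44 in DoxyNaB/NaB, where POLD3 was the exception, so that a 2-fold effect of doxycycline lay outside the interval of all others.

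The difference between the butyrate response without and with doxycycline, NaB/Ctl minus DoxyNaB/Doxy, was tested in the same fit. At an adjusted p under 0.01 by limma, 0 of the 45 genes passed in either direction (0.216% of all probes below 0 and 1.03% above), and 1 did at an unadjusted p under 0.05 (share of all probes not counted), while the methods' paired test also gave 0. That gene was MCM6, which was at 3.24, 3.62 and 3.87 in Ctl, 2.54, 2.65 and 2.95 in NaB, 3.57, 3.66 and 4.16 in Doxy and 2.01, 2.34 and 2.76 in DoxyNaB. MCM6 was lower with butyrate in every experiment, by -0.93 ± 0.26 without doxycycline and -1.42 ± 0.17 with it, and the difference of 0.49 (95% interval 0.19 to 0.80) did not pass the adjusted threshold (adjusted p 0.1). For the other genes apart from POLD3 the 95% interval of the difference stayed between -0.80 and 0.80. For AXIN2 the same difference was 1.95 ± 0.42 (adjusted p 8.24e-08).

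**Figure D4:**
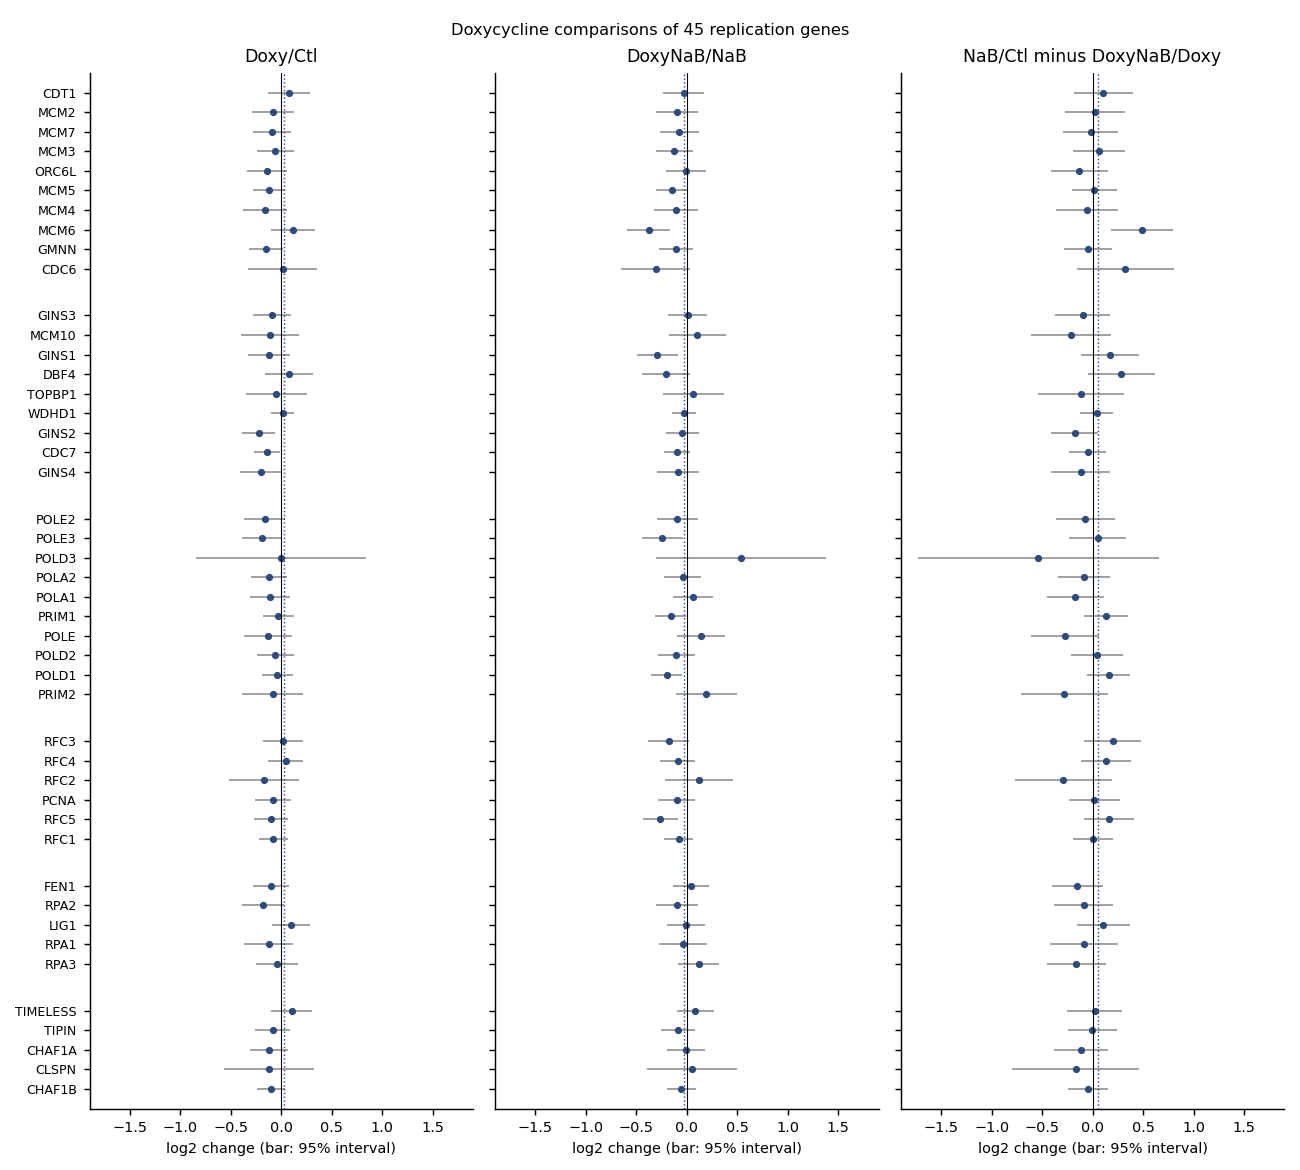
Log2 change of the 45 genes in Doxy/Ctl, in DoxyNaB/NaB and in the difference NaB/Ctl minus DoxyNaB/Doxy; points are fitted changes, bars 95% intervals and dotted lines the medians of all probes. No gene passed an adjusted p of 0.01 in the 3 panels, the widest bars are those of POLD3, and MCM6 is the gene whose interval excludes 0 in the third panel.

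The position of 0 depended on the scaling of the arrays. The median of all probes in NaB/Ctl was 0.17 with the 75th percentile, 0.07 with normexp background correction, -0.05 with quantile normalization and -0.58 with scaling to the median, and the share of all called probes that were higher was 65.3%, 53.2%, 47.1% and 21.2%. Relative to that median, the median of the 45 genes was lower by a difference of -1.41, -1.10, -1.08 and -1.41 under these 4 scalings in NaB/Ctl and of -1.27, -1.28, -1.07 and -1.27 in DoxyNaB/Doxy. The number of the 45 genes below 0 in NaB/Ctl was 42, 41, 41 and 45.

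**Figure D5:**
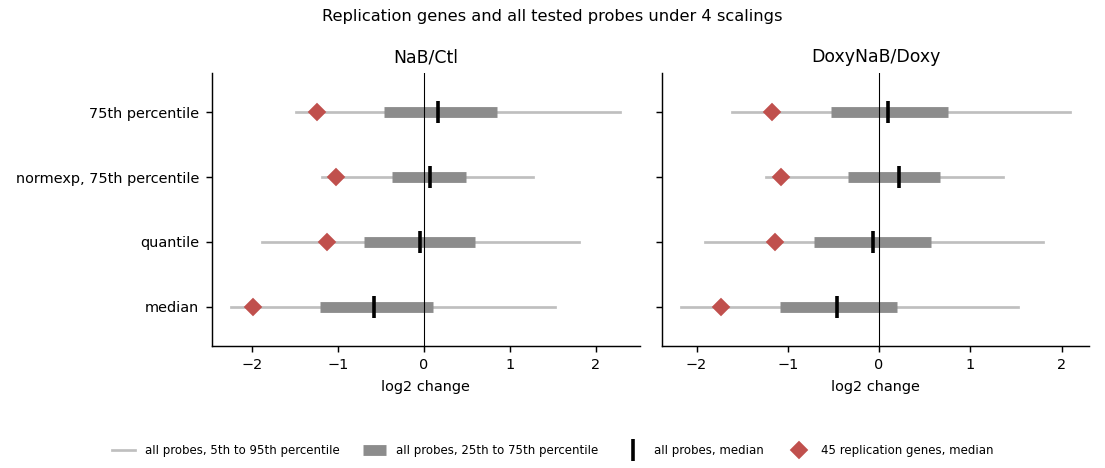
Log2 change with butyrate under 4 scalings of the arrays; diamonds are medians of the 45 genes, black ticks medians of all 18966 tested probes, thick bars their 25th to 75th and thin lines their 5th to 95th percentiles. The diamonds lie to the left of the thick bars under all 4 scalings, while the tick moves from 0.17 with the 75th percentile to -0.58 with the median in NaB/Ctl.

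Other genes of the pathway were taken from a list of 30 further replication genes, all tested. In NaB/Ctl, 15 of them were lower and 1 higher at a fold over 2 (11% and 20.7% of all probes), and 23 were lower and 4 higher at the p threshold (28.2% and 40.1% of all probes), with a median of -0.97. The largest falls were those of UHRF1 (-2.15 ± 0.47 over 5 experiments), which recruits the maintenance methyltransferase to new DNA, DSCC1 (-1.92 ± 0.30), part of an alternative clamp loader, TOP2A (-1.80 ± 0.30), the topoisomerase of dividing cells, RNASEH2B (-1.79 ± 0.17), a subunit of the enzyme that removes ribonucleotides, and CDC45 (-1.72 ± 0.28), the third part of the active helicase. MCM9, an MCM relative outside the replicative ring, was the gene called higher with the 75th percentile scaling (1.25 ± 0.26, adjusted p 1.46e-07). In DoxyNaB/Doxy, 13 were lower and 1 higher at a fold over 2 (12.3% and 18.3% of all probes), and 23 were lower and 4 higher at the p threshold (29.7% and 37.3% of all probes), with a median of -0.87. The gene called higher there was ORC4, part of the complex that marks origins, at 1.07 ± 0.27 (adjusted p 2.31e-09). ORC4 changed by 0.90 ± 0.14 in NaB/Ctl (adjusted p 2.25e-08), also with the 75th percentile scaling. MCM9 changed by 0.72 ± 0.48 in DoxyNaB/Doxy, short of a fold of 2.

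A list of 13 genes of the E2F and pocket protein families, the switch that turns replication genes on and off, was read the same way. In NaB/Ctl, 7 were lower and 0 higher at a fold over 2 (11% and 20.7% of all probes), and 10 were lower and 0 higher at the p threshold (28.2% and 40.1% of all probes). The changes of the activators E2F2 and E2F3 were -2.73 ± 0.17 and -1.97 ± 0.16 and that of E2F1 -1.27 ± 0.43. Those of the repressor E2F8 and of E2F5 were -3.21 ± 0.98 and -1.78 ± 0.29, with the E2F8 probe above background on 4 of 6 NaB arrays. E2F7 changed by -1.30 ± 0.30. RB1, which encodes the retinoblastoma protein that holds E2F factors inactive, had, with the 75th percentile scaling, a change of 0.24 ± 0.30 in NaB/Ctl (adjusted p 0.0416) and of 0.52 in DoxyNaB/Doxy (adjusted p 0.000197). The other pocket protein genes did not rise. RBL1 changed by -0.92 in NaB/Ctl (adjusted p 4.54e-07) and by -0.84 in DoxyNaB/Doxy (adjusted p 1.46e-06). RBL2 changed by -0.07 (adjusted p 0.612) and -0.02 (adjusted p 0.905). In the difference between the butyrate responses 0 of the 30 and 0 of the 13 genes passed the p threshold (0.216% of all probes below 0 and 1.03% above). With shares this small, 0 in lists of this size is not read as a result.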

How the data were processed

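The authors hybridized labelled cRNA of 24 samples to Agilent Human v2 GE 4x44K arrays in a single colour. Per the file headers, the deposited intensity values (gProcessedSignal) came from Agilent Feature Extraction 9.5.3.1, which removed background and spatial trends within each array and did no scaling between arrays. The study's methods also name GeneSpring, whose output was not used here. The deposited flags for spots above background were used as the software set them.

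From these intensities, spots flagged as outliers were dropped (359 to 795 per array), log2 values were set against the 75th percentile of each array (over its 43118 spots that are no controls), and spots of a probe were averaged. A probe was tested if well above background on all 6 arrays of a treatment, which left 18966. Changes and adjusted p were computed with limma 3.58.1 (lmFit, eBayes, R 4.3.3) over 4 treatments with the experiment number as a block and Benjamini-Hochberg adjustment. A call needed a fold over 2 and an adjusted p under 0.01, and the difference of responses an adjusted p under 0.01 only. SD is the spread over experiments. A gene with several probes was read by its tested probe of highest mean level. The fit was tested on simulated data. Tables were made with Python 3.11.15 and pandas 2.3.3 and figures with matplotlib 3.10.9.

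The 24 arrays had 75th percentiles of 381.8 to 1345 intensity units and 52.7% to 88.1% of spots well above background, and precision was set by 6 experiments. The experiments were named as biological replicates in the methods, where a paired test was used, and the residuals of arrays of the same experiment correlated above 0.1 in 35 of 36 pairs (median 0.60), with 1 exception in experiment 3 (-0.22). Among pairs of different experiment and treatment, 58 of 180 also correlated above 0.1 (median -0.30), with a highest value of 0.88 against 0.85 within experiments. The arrays of experiments 2 to 4 were scanned on 1 day and those of experiments 5 and 6 on another. In experiment 1 the Ctl and Doxy arrays were scanned on 1 day and the NaB and DoxyNaB arrays on another. Probe coordinates are those of the files (NCBI36), which do not give exon or UTR positions. Genes described in full were the 2 with the largest and the 1 with the smallest NaB/Ctl change in each of 6 roles and any called against the majority, and POLD3, RFC2 and MCM6 were added after their values were seen. The genes, roles, lists and tests were chosen with earlier results of these data known. Alternatives tried were other background corrections, scalings, filters, fold thresholds, blocks and subsets of experiments, and the methods' paired test.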

Additional observations from a re-analysis of the deposited data

Results flagged for a closer look

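Among 84 sets of arrays (21 genes in 4 treatments), 13 had 1 array farther from the rest than Dixon's critical value, which chance alone gives in about 1 of 20. POLD3, RFC2 and MCM6 were included after their values were seen. Of the 13, 10 were arrays of experiment 1. MCM2 was at 3.22 in Ctl and 3.22 in Doxy there, above the other experiments, and RPA3 at 3.76 in Ctl and 3.75 in Doxy, also above. MCM10 was at -1.26 in Ctl and -3.41 in NaB there, below the others. RFC3 was at 0.23 in Ctl and 0.19 in Doxy there, below the others, and PRIM2 was at 0.50 in Doxy. RFC2 was at 0.026 in NaB of experiment 1, against 0.94 to 1.35 elsewhere.

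The other 3 came from 3 experiments. GINS4 was at 0.23 in DoxyNaB of experiment 2, the array with the brightest negative controls. POLD3 was at 3.20 in DoxyNaB of experiment 4, against -0.54 to -0.19 in the other experiments. MCM6 was at 4.16 in Doxy of experiment 6, against 3.57 to 3.77 in the others. What lies behind these arrays was not tested.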

How the results depend on the processing

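Leaving out each experiment in turn gave 24 to 28 genes lower in NaB/Ctl and 25 to 27 in DoxyNaB/Doxy at a fold over 2. Without the replicate block, that is without pairing by experiment, 26 were lower in each comparison, and with the slide as a block 25 in each. The shares of all probes called lower under these settings are not given, so these counts are not set against them. Scaling to the median gave 41 lower in NaB/Ctl and 40 in DoxyNaB/Doxy, where 32.3% and 27.7% of all probes were called lower, against 11% and 12.3% with the 75th percentile. With no fold threshold 40 were lower and 1 higher in NaB/Ctl (28.2% and 40.1% of all probes). In DoxyNaB/Doxy 40 were lower and 2 higher (29.7% and 37.3% of all probes). A fold over 1.5 gave 1 higher there (share of all probes not given). The median of the genes minus that of all probes in NaB/Ctl was -1.10 with normexp, -1.08 with quantile normalization, -1.93 with no filter on dim probes and -1.18 in experiments 5 and 6 only. In DoxyNaB/Doxy it was -1.07 with quantile normalization and -1.67 with no filter. Of the changes that had passed the p threshold, these turned: RFC1 to -0.38 in NaB/Ctl and -0.19 in DoxyNaB/Doxy with scaling to the median, and CDC6 to 0.086 in DoxyNaB/Doxy with normexp. Of those that had not passed it, scaling to the median turned GINS4 to -0.57 in NaB/Ctl and -0.26 in DoxyNaB/Doxy, PRIM2 to -0.42 in NaB/Ctl and RPA3 to -0.46 in DoxyNaB/Doxy. PRIM2 was also at -0.05 in NaB/Ctl in experiments 2 to 4 only, and RPA3 in NaB/Ctl turned to 0.21 with normexp, 0.18 with quantile normalization and 0.20 in experiments 5 and 6 only. The cause was not tested. The doxycycline comparisons and the difference of responses gave 0 calls under every alternative run. With the 75th percentile, only 0.0264% to 1.03% of all probes were called in either direction of these comparisons. Dim probes, such as that of CDC6, limit what the arrays can show of low genes.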
